A study of Mus musculus with 2 samples.

Results

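The genes described here encode the core of the beta-catenin destruction complex and the Dishevelled proteins that switch it off. There are 10 of them among the 35529 genes of the table, chosen by symbol alone: Ctnnb1, Apc, Apc2, Axin1, Gsk3a, Gsk3b, Csnk1a1, Btrc, Dvl1 and Dvl2. All 10 were found, and 9 reached 1 RPKM (reads scaled to gene length and sequencing depth) in at least 1 library, the level used as a filter. RNA came from C57BL/6 wild-type mice. The control library was made from normal colon of animals that received neither agent. The adenoma library was made from colon adenomas that arose after AOM+DSS treatment. AOM is azoxymethane, an alkylating agent that causes colon tumours in rodents. DSS is dextran sodium sulfate, which inflames the colon by damaging its lining. Dose, time, age and sex are not given in the sources used here. Total RNA of 6 individuals was pooled for each library, so each group has 1 library. No difference below therefore has a replicate check, and the 95% intervals cover counting error only.

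In a cell without Wnt signal, the scaffolds Axin and Apc hold beta-catenin next to the kinases casein kinase 1 alpha and glycogen synthase kinase 3. These phosphorylate its amino-terminal end, the ubiquitin ligase subunit beta-TrCP binds the phosphorylated stretch, and the proteasome degrades the protein. A Wnt ligand recruits Dishevelled and Axin to its receptors, the complex stops working, and beta-catenin enters the nucleus to act with TCF/LEF factors. In the colon this pathway maintains the crypt base, and mutations of its components are common in colorectal tumours; tumours induced with AOM in mice are known for mutations of the phosphorylated stretch of Ctnnb1. A table of RPKM values holds no information on mutations, on protein or on phosphorylation.

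The stretch of Ctnnb1 that the complex acts on is shown because the roles of the other 9 genes centre on it. It is the plus strand of chr9:120950593-120950652 on GRCm38, in the coding part of exon 3 of the GENCODE M21 transcript Ctnnb1-201, and spans codons 29 to 48. Capitals mark the codons of residues 33, 37, 41 and 45, which were found by translating the transcript. Csnk1a1 phosphorylates the residue nearest to the carboxyl terminus, the Gsk3 kinases the others, and Btrc binds around the phosphorylated residues nearest to the amino terminus.
Ctnnb1 exon 3: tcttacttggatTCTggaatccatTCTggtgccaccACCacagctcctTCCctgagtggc

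The destruction complex genes spanned a wide range of levels, and their order was nearly the same in both libraries. RPKM are scaled to gene length, which lets levels of different genes be set side by side. The fold change still moved with transcript length, as described below, so the order of genes of unlike length is approximate. In the control library Ctnnb1 was the highest of the 10, followed by Csnk1a1, Gsk3a, Axin1, Dvl1, Apc, Gsk3b, Dvl2, Btrc and Apc2. Gsk3b and Dvl2 are neighbours in that order whose counting intervals overlapped, at 4.30 to 4.84 RPKM and 3.77 to 4.64 RPKM, as did none of the other neighbours. In the adenoma library the first 5 places and the last 2 were held by the same genes, while Dvl2 came 6th, Gsk3b 7th and Apc 8th. There the intervals of Dvl2 and Gsk3b overlapped, as did those of Apc and Btrc, and those of Axin1 and Dvl1 met at 11.0 RPKM. The sum over the 10 genes was 352 RPKM in the control library and 365 RPKM in the adenoma library, most of it from Ctnnb1 and Csnk1a1. Without these 2, which were higher in the adenoma library on the deposited scale, the 8 genes left summed to 78.4 and 54.7 RPKM, 1.43-fold lower. Of the 9 members past the filter, the counting interval of the ratio lay below 1 for 6, above 1 for 2 and around 1 for Dvl1. At this depth such intervals were common: among 15423 genes of known length past the filter and above 0 in both libraries, 45.1% had one below 1 and 39.1% one above 1.

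**Figure D1:**
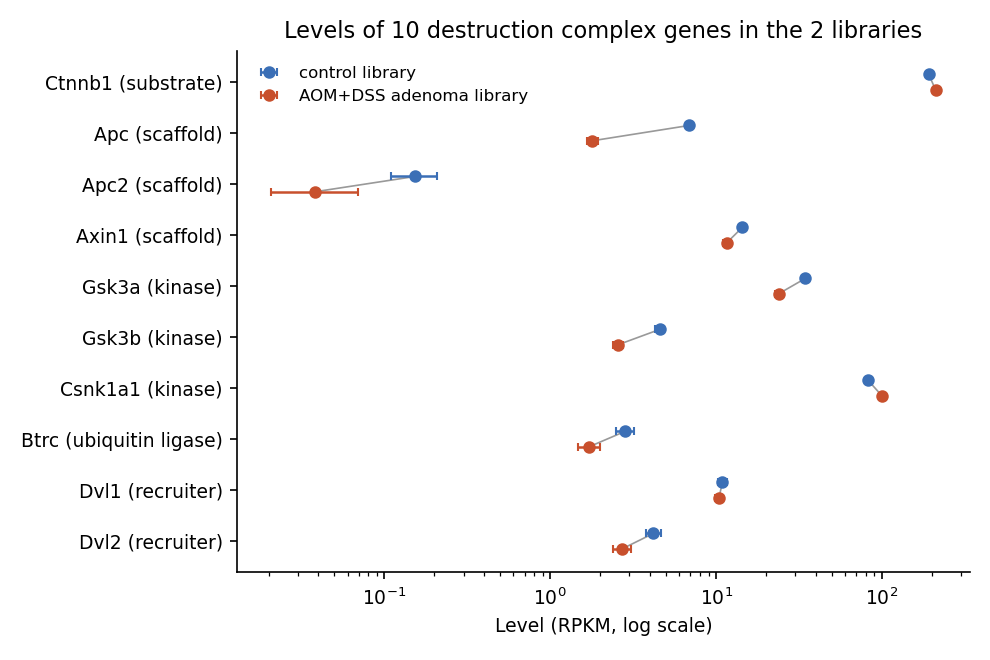
Level of each destruction complex gene in RPKM (horizontal log axis) in the control library (blue) and the adenoma library (red), 1 library each; bars are exact Poisson 95% intervals of the estimated reads and cover counting error only. Apc has the widest gap among genes above 1 RPKM, 6.88 against 1.80, while Ctnnb1 and Csnk1a1 are slightly higher in the adenoma library on this scale and lower at equal sums.

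On a log2 scale with a pseudocount of 1 RPKM, a scale that shrinks the differences of weakly expressed genes, 1 of the 9 genes past the filter was lower by 2-fold or more in the adenoma library, and 0 were higher by as much. Over all 16517 genes past the filter the shares were 11.0% lower and 14.0% higher, 25.0% in all. Of the genes past 2-fold 56.1% were higher, and 27.7% were with both libraries rescaled to equal sums. The share of members that were lower was thus near the background. The single gene past 2-fold was Apc. Negative log2 fold changes were found for 7 of the 9 members, for 50.8% of all genes and for 7497 of 12910 mRNA genes. The median log2 fold change of the 9 members was -0.48, and of all 10 it was -0.38, beside -0.02 for all genes past the filter and -0.17 for the 12910 mRNA genes among them. At equal sums the median of the 9 was -0.73, beside -0.36 for all genes.

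Transcript length moved with the fold change in these libraries, and it bears on this group because several of its transcripts are long. Across 12748 mRNA genes the fold change was lower the longer the transcript, with a Spearman's rho of -0.54, a correlation across genes that share the same 2 libraries. The median log2 fold change was 0.89 in the shortest of 20 length bins and -0.80 in the longest. The members ranged from 2260 bases for Gsk3a to 12811 bases for Apc. Each member was therefore set beside the 500 mRNA genes nearest to it in transcript length. Of the 9 members past the filter, 4 lay below the median of their like-length genes and 5 above it. For a length-adjusted log2 fold change, the median of a gene's length bin was subtracted and the median of the mRNA genes with a known length, -0.17, added back. On that scale the median of the 9 was -0.08, beside -0.20 for all genes with a known length. Of the 9, 0 were 2-fold apart, while 4.98% of all genes with a known length were higher and 11.1% lower by that much. Without adding the median back, the median of the 9 was 0.09, so its sign depends on that step. What part length itself had in any single difference was not tested.

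**Figure D2:**
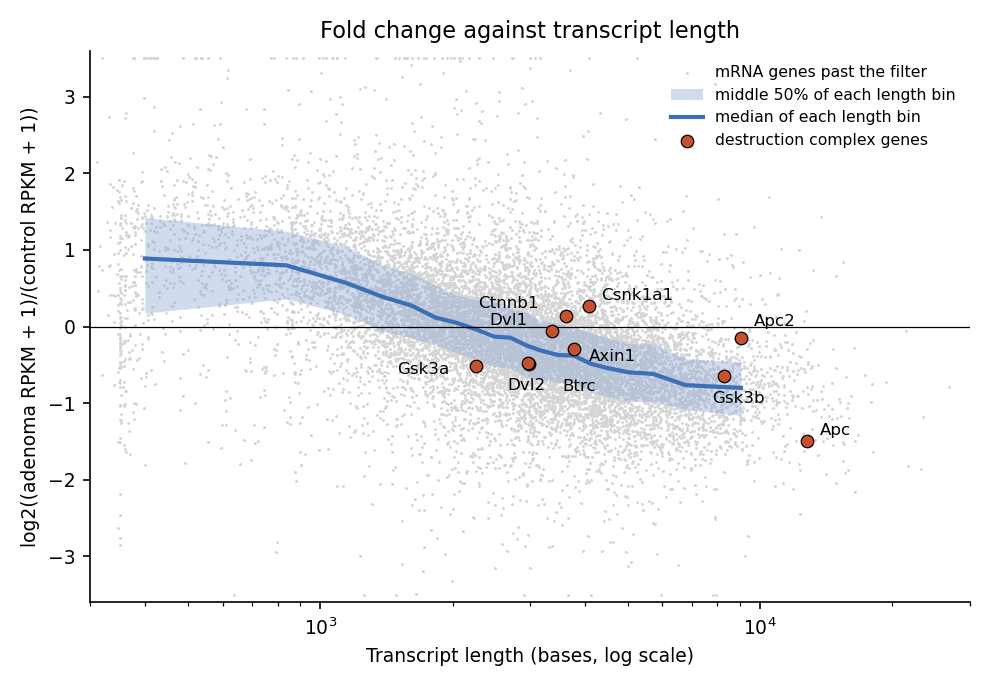
log2 fold change (vertical axis, pseudocount 1 RPKM) against transcript length in bases (horizontal log axis) for mRNA genes past the filter (grey, values beyond 3.5 either way drawn at 3.5), with the median and the middle 50% of each of 20 length bins (blue) and the 10 destruction complex genes (red). Apc lies below the middle 50% of the longest bin, Gsk3b on the trend, and Ctnnb1 and Csnk1a1 above it.

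Ctnnb1, which encodes beta-catenin itself, was among the most abundant transcripts. It stood at 191 RPKM in the control library and 211 RPKM in the adenoma library, from about 20501 and 25304 reads. The adenoma library was 1.10-fold higher (exact Clopper-Pearson binomial 95% interval 1.08 to 1.12). The log2 fold change of 0.14 became -0.26 at equal sums. Scaled by the median ratio, the upper quartile or a trimmed mean of log ratios, it was 0.17, 0.20 and 0.16. Of the genes past the filter, 97.2% had a lower level in the control library, and 96.1% did so in the adenoma library. Of the 500 genes of like length, 81.2% had a lower log2 fold change. The last part of the Ctnnb1 transcript overlaps the kinase gene Ulk4: 664 of its 3574 stretches of 50 bases (18.6%) also occur in transcripts of Ulk4. Whether reads were assigned by strand is not given in the sources used here. Ulk4 itself was at 0.216 and 0.229 RPKM, far below Ctnnb1 in both libraries.

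The scaffold Apc had the largest difference among members above 1 RPKM. It was at 6.88 RPKM in the control library, from about 2603 reads, and at 1.80 RPKM in the adenoma library, from about 764 reads. The adenoma library was 3.83-fold lower (3.53 to 4.15), with a log2 fold change of -1.49. That moved Apc from above 48.6% of the genes past the filter to above 19.3%. Apc has the longest transcript of the group, and its like-length genes, from 8044 to 19341 bases, were low as well, with a median log2 fold change of -0.82 and 34.0% of them at least 2-fold lower. Even so, only 11.0% of these 500 genes had a lower log2 fold change than Apc, or 15.8% by the ratio without pseudocount. The length-adjusted log2 fold change was -0.87, short of 2-fold, and the distance to the bin median itself was -0.69. The RNA is from pooled whole tissue, where fewer cells of a type and less RNA per cell cannot be told apart.

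Apc2, a paralog of Apc known mainly from the nervous system, was close to undetected in both libraries. It was at 0.153 RPKM in the control library and 0.0382 RPKM in the adenoma library, below the filter in each. These levels correspond to about 41 and 11.5 reads, and the ratio was 4.0-fold lower in the adenoma library with a wide interval of 1.98 to 8.02. Markers of enteric neurons were lower too. Their summed level over 8 genes was 33.7 RPKM in the control library and 22.7 RPKM in the adenoma library. Of the 6 past the filter 5 had negative log2 fold changes, and none of the 8 was listed at 0. Their part in the difference of Apc2 was not tested.

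Axin1, the scaffold that brings the kinases and beta-catenin together, differed little. It stood at 14.4 RPKM in the control library and 11.6 RPKM in the adenoma library, 1.24-fold lower (1.15 to 1.33). Its log2 fold change of -0.29 was close to the median of -0.37 of its like-length genes, 57.8% of which were lower. Its paralog Axin2, which is both a scaffold of the complex and a textbook target of beta-catenin, went the other way. Axin2 was at 6.21 RPKM in the control library and 14.4 RPKM in the adenoma library, 2.31-fold higher (2.13 to 2.51), and 98.0% of its like-length genes had a lower log2 fold change. Axin1 was thus the more abundant of the pair in the control library and Axin2 in the adenoma library.

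The kinase genes did not share a direction on the deposited scale. At equal sums, where the median of all genes was -0.36, all 3 had negative log2 fold changes. Csnk1a1, which encodes the casein kinase that primes beta-catenin, was at 82.6 RPKM in the control library and 99.9 RPKM in the adenoma library. It was 1.21-fold higher (1.18 to 1.24), with a log2 fold change of 0.27 that became -0.12 at equal sums. Scaled by the median ratio, the upper quartile or a trimmed mean of log ratios, Csnk1a1 was at 0.30, 0.33 and 0.30. Of its like-length genes 86.2% had a lower log2 fold change, the largest such share among the 9 members past the filter. Gsk3a, the more abundant of the glycogen synthase kinase genes, was at 34.5 RPKM and 23.8 RPKM, 1.45-fold lower in the adenoma library (1.36 to 1.54). Gsk3a has the shortest transcript of the group, and only 20.6% of its like-length genes had a lower log2 fold change.

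Gsk3b was at 4.57 RPKM in the control library and 2.56 RPKM in the adenoma library, 1.78-fold lower (1.62 to 1.96). Its log2 fold change of -0.64 was the most negative after that of Apc, but its transcript is 8303 bases long, and the 500 genes of like length had a median of -0.81. Gsk3b lay 0.16 above the median of its length bin, which made its length-adjusted log2 fold change -0.02. The order of the Gsk3 genes by fold change was therefore reversed by this step, with Gsk3a at -0.65. Gsk3a shares 429 of its 2211 stretches of 50 bases (19.4%) with other genes, nearly all of them with the overlapping RNA gene 9130221H12Rik, which was at 8.84 and 5.49 RPKM. It shares none with Gsk3b.

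Btrc, which encodes the beta-TrCP subunit that recognises phosphorylated beta-catenin, was the lowest member past the filter in both libraries. It was at 2.82 RPKM in the control library and 1.72 RPKM in the adenoma library, 1.64-fold lower (1.35 to 2.02), on about 248 and 169 reads. Of its like-length genes 33.6% had a lower log2 fold change. Its paralog Fbxw11, which encodes a second beta-TrCP protein, was more abundant than Btrc in both libraries. It was at 17.8 and 9.36 RPKM, 1.90-fold lower in the adenoma library (1.77 to 2.04). Among their partners in the ubiquitin ligase, the adaptor Skp1a was at 85.7 and 195 RPKM, 2.28-fold higher (2.19 to 2.37). The scaffold Cul1 was at 20.03 and 20.25 RPKM, with an interval of 0.949 to 1.08 for the ratio. The RING subunit Rbx1 was at 23.0 and 41.8 RPKM, 1.82-fold higher (1.70 to 1.96). Skp1a and Rbx1 have short transcripts, and their log2 fold changes of 1.18 and 0.84 were 0.62 and 0.39 when length-adjusted. Cul1 and Rbx1 are named outside the rule for this list, after their values were seen.

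Among the Dishevelled genes, which link Wnt receptors to Axin, Dvl1 differed least. It was at 10.9 RPKM in the control library and 10.4 RPKM in the adenoma library, and the interval of the ratio, 0.877 to 1.04, included 1. Dvl2 was at 4.19 and 2.72 RPKM, 1.54-fold lower in the adenoma library (1.31 to 1.81), and 34.6% of its like-length genes had a lower log2 fold change. The third gene of the family, Dvl3, was at 6.18 and 2.80 RPKM, 2.21-fold lower (1.94 to 2.51), although its log2 fold change with pseudocount, -0.92, fell short of 2-fold. Dvl1 made up 51.3% of the summed RPKM of the family in the control library and 65.3% in the adenoma library. The share of Dvl3 was 29.0% and 17.6%, and that of Dvl2 19.7% and 17.1%. A short stretch of the Dvl3 transcript is repetitive, with 2.03% of its stretches of 50 bases found in other genes.

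Ratios of related genes within a library do not depend on how the 2 libraries are scaled. Of 8 such ratios, 6 differed between the libraries beyond their counting intervals, or 5 with the length trend subtracted and 7 with a pseudocount of 1 RPKM. Among every pair of the 15423 genes above, 81.8% did by the plain ratio, so the share of 6 of 8 was not above the background. No such background was computed for the length-adjusted and pseudocount counts. The count of 7 includes Apc2 to Apc and Fbxw11 to Btrc, with log2 changes of 1.34 and -0.37 on that scale. The ratio of Axin2 to Axin1 differed most, at 0.432 in the control library and 1.24 in the adenoma library, a log2 change of 1.52 (1.36 to 1.68). Next came Csnk1e to Csnk1d, paralogous casein kinases that act on Dishevelled among other proteins, from 0.177 to 0.464, a log2 change of 1.39 (1.25 to 1.54). Csnk1d was at 44.4 and 27.7 RPKM and Csnk1e at 7.85 and 12.9 RPKM. The ratio of Jup, which encodes the beta-catenin relative plakoglobin, to Ctnnb1 was lower in the adenoma library, 0.336 against 0.211.

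The Dishevelled and Gsk3 ratios differed less. Dvl1 to Dvl2 was 2.61 in the control library and 3.82 in the adenoma library, and Dvl3 to Dvl2 was 1.48 and 1.03. Gsk3a to Gsk3b was 7.55 and 9.30, a log2 change of 0.30 (0.14 to 0.46) that turned to -0.47 with the length trend subtracted. By the plain ratio, Fbxw11 to Btrc, at 6.30 and 5.46, and Apc2 to Apc, at 0.0222 and 0.0213, did not differ beyond counting error. Their intervals were -0.51 to 0.09 and -1.02 to 0.89 for the log2 change. The 50-base stretches of Apc, Axin1, Gsk3a, Btrc, Dvl1 and Ctnnb1 included none that occur in the paralog each was paired with, Dvl1 being set against Dvl2. In addition, and chosen after the values were seen, Ctnnb1 stood at 27.8 times the level of Apc in the control library and 117 times in the adenoma library. The log2 change of that ratio was 2.07 (1.95 to 2.19), or 1.65 with the length trend subtracted.

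**Figure D3:**
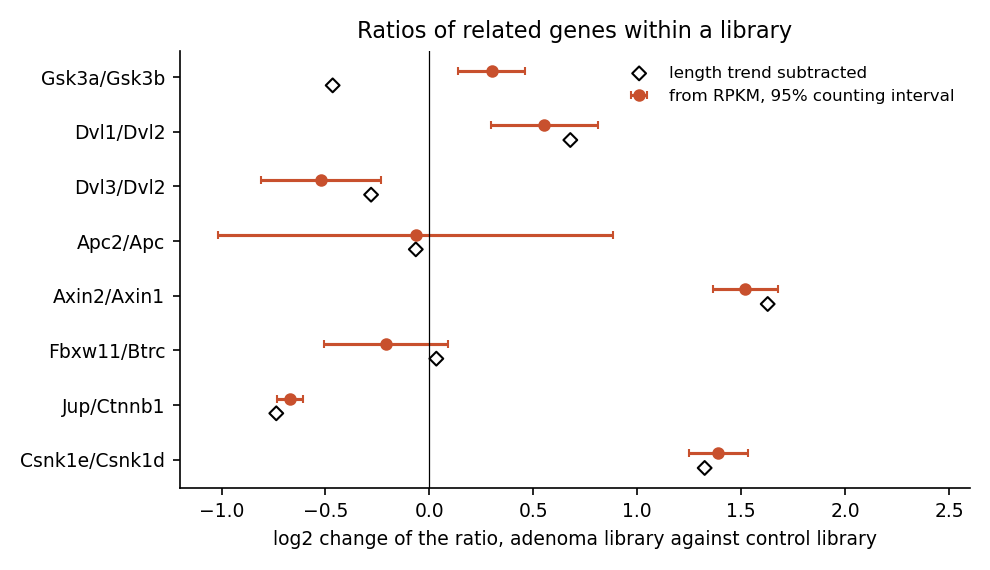
log2 change of the ratio of related genes from the control library to the adenoma library (horizontal axis), with 95% counting intervals (red circles) and after subtracting the trend over transcript length (open diamonds). Axin2/Axin1 and Csnk1e/Csnk1d lie above 1 by both measures, while Gsk3a/Gsk3b changes sign.

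The rest of the pathway was described with lists by role. All counts are of log2 fold changes past 2-fold. With the pseudocount of 1 RPKM on the deposited scale they stand beside 14.0% higher and 11.0% lower over all genes. At equal sums 1208 of 16173 genes were higher and 3158 lower. With a pseudocount of 0.1 RPKM 3000 of 16517 were higher and 2858 lower. After length adjustment the shares were 4.98% and 11.1%. Genes passed the filter by either library, so some counted genes passed only through the library where they were higher. Amer2, Fzd10, Fzd4 and Lef1 below are such genes. Genes of this kind are counted among all genes too, and without the filter the counts of each list were the same. In the rest of the degradation machinery, 3 of 24 genes past the filter were higher and 0 lower, and their median was 0.02. At equal sums 1 was higher and 4 lower, and with a pseudocount of 0.1 RPKM 3 were higher and 2 lower. The highest was Amer2 (named Fam123a in the table), which encodes an Apc-binding membrane protein, at 0.0498 RPKM in the control library and 2.38 RPKM in the adenoma library, 47.8-fold higher (29.7 to 88.4). The lowest was the tankyrase gene Tnks, whose product marks Axin for degradation, at 4.16 and 1.66 RPKM, 2.51-fold lower (2.26 to 2.80). Its transcript is 9163 bases long, and 36.8% of its like-length genes had a lower log2 fold change. Length-adjusted, Tnks was at -0.33. At the receptor level 1 of 16 was higher and 6 lower, with a median of -0.43. After length adjustment the count was 2 higher and 1 lower, and the median -0.16. Lrp6, the co-receptor that captures Axin, was the lowest by log2 fold change at 10.6 and 2.47 RPKM, 4.30-fold lower (3.97 to 4.66). Of its like-length genes 3.20% were lower still, or 8.80% by the ratio without pseudocount. By that ratio the lowest of the list was the Frizzled gene Fzd4, at 1.69 and 0.303 RPKM, 5.58-fold lower (4.32 to 7.43). Fzd10, a Frizzled receptor, was the highest at 0.136 and 2.24 RPKM, and the most abundant was the casein kinase gene Csnk1g2 at 60.4 and 73.6 RPKM.

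The partners of beta-catenin at cell contacts were lower, unlike Ctnnb1 on the deposited scale. All 5 cadherin partners past the filter had negative log2 fold changes, 2 of them past 2-fold, with a median of -0.92, or -0.50 when length-adjusted. E-cadherin, Cdh1, had the highest level of the list in the control library, and the alpha-catenin gene Ctnna1, at 115 and 74.3 RPKM, in the adenoma library. Cdh1 was at 137 RPKM in the control library and 44.9 RPKM in the adenoma library, 3.05-fold lower (2.96 to 3.14), and 4.0% of its like-length genes were lower still, or 11.4% by the ratio without pseudocount. The least negative was Jup, at 64.3 and 44.4 RPKM, 1.45-fold lower (1.39 to 1.5). Epithelial markers were lower as well: 7 of 8 had negative log2 fold changes, and their sum was 9217 RPKM in the control library and 5868 RPKM in the adenoma library, with 4 of 8 past 2-fold. The most abundant, the keratin gene Krt8, was at 4237 and 2514 RPKM, the lowest by log2 fold change, the transcription factor gene Cdx2, at 30.1 and 7.43 RPKM, and the highest, Krt18, at 327 and 483 RPKM. Cdh1 is in both lists, and the part of epithelial content in these differences was not tested.

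Of 17 nuclear partners past the filter, 2 were higher and 5 lower by 2-fold or more, and the median was -0.54. Length-adjusted, 2 were higher and 1 lower, with a median of -0.25, while at equal sums 0 were higher and 7 lower. By log2 fold change the highest was Tcf7, a TCF factor, at 4.96 and 13.3 RPKM, 2.69-fold higher (2.38 to 3.03). The repressor Tcf7l1 was the lowest at 15.5 and 4.31 RPKM, 3.59-fold lower (3.22 to 4.0). By the ratio without pseudocount the highest past the filter was Lef1, at 0.275 and 1.57 RPKM, 5.72-fold higher (3.87 to 8.96). The lowest by that ratio was Ep300, at 9.11 and 2.45 RPKM, 3.72-fold lower (3.43 to 4.03). Cby1, an antagonist of beta-catenin, had the highest level of the list in the adenoma library, at 17.2 and 26.7 RPKM, and the chromatin remodeller gene Smarca4 in the control library, at 26.5 and 22.9 RPKM. Of 18 textbook Wnt target genes, 9 were higher and 0 lower by 2-fold or more, and the median was 0.98, or 1.13 when length-adjusted. At equal sums 6 were higher and 2 lower. Several of the 9, Mmp7 and Lef1 among them, were below 1 RPKM in the control library and passed the filter only through the adenoma library. The highest by log2 fold change was the protease gene Mmp7, at 0.116 and 328 RPKM, from an estimated 3.65 reads in the control library. It was the most abundant of the list in the adenoma library, while in the control library that was the cyclin gene Ccnd1, at 33.0 RPKM. The receptor gene Ephb2 was the lowest at 14.1 and 8.03 RPKM, 1.76-fold lower (1.68 to 1.85). Its transcript is 10902 bases long, 53.6% of its like-length genes had a lower log2 fold change, and its length-adjusted value was -0.12. The direction of these targets in the same libraries was known when the list was written, so it is not independent evidence. The lists also overlap: among the targets, Tcf7 and Lef1 are nuclear partners too, Axin2 is in the degradation list, and Rnf43 and Znrf3 are in the receptor list.

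**Figure D4:**
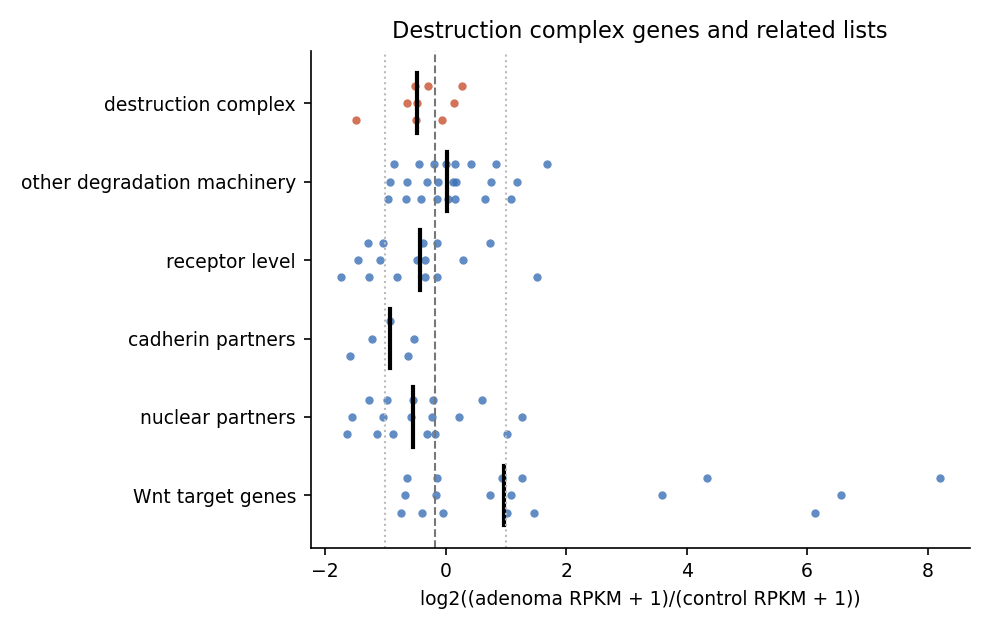
log2 fold change (horizontal axis, pseudocount 1 RPKM) of each gene past the filter in the destruction complex (red) and 5 related lists (blue); black bars are list medians, the dashed line is the median of mRNA genes, and dotted lines mark 2-fold. The destruction complex lies mostly between 0 and -1, the cadherin partners are all negative, and the target genes extend far to the right.

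Other cell types of the colon wall were present in both libraries. Summed markers went from 2127 to 1769 RPKM for smooth muscle, from 314 to 402 RPKM for fibroblasts, from 26.4 to 12.5 RPKM for endothelium, from 47.4 to 49.7 RPKM for immune cells and from 4.42 to 2.40 RPKM for enteric glia, control library first. Log2 fold changes were above 0 for 1 of 6 smooth muscle, 2 of 5 fibroblast, 0 of 3 endothelial and 3 of 5 immune markers. Of the 2 glial markers past the filter both were negative. The fibroblast median was -0.22. At equal sums the adenoma levels are multiplied by 0.759, and there the fibroblast and immune sums were lower too. No marker in these lists was listed at 0 in either library. The destruction complex genes are known to be expressed in most cell types, and the part of cell mix in their differences was not tested. Promoter windows of 300 bases from RefSeq (GRCm38.p6) were matched for 6 members: Apc2, Ctnnb1, Dvl1, Dvl2, Gsk3a and Gsk3b. Ctnnb1 held 46 and 51 CG pairs in its 2 windows, and the windows of Dvl1, Gsk3b, Dvl2 and Gsk3a held 35, 21, 20 and 14, beside a median of 7 over all 32851 windows. Apc2, the member near 0, had 4 windows with 2 to 21.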

How the data were processed

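RNA of 6 individuals per group was pooled and sequenced as 1 library each. The authors deposited RPKM per gene, per the file headers and values. Per the submitters' processing notes the build was GRCh37, a human assembly, although the symbols are those of mouse; aligner, counter and annotation are not given in the sources used here. Per the labels, both Proton and Illumina sequencing are named.

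Read totals, recovered from short single-exon RNA genes of known RefSeq length (GRCm38.p6), came to 29548883 (control) and 33174626 (adenoma); 129 of 182 and 144 of 200 such genes came out within 0.01 of a whole read. Reads per gene were estimated with the longest RefSeq-linked GENCODE M21 transcript, found for 94.0% of 16517 genes past the filter of 1 RPKM in either library. Among 11129 (control) and 11532 (adenoma) mRNA genes checked with these lengths, only 37.0% and 35.9% came within 0.05 of a whole or halved read. Lengths may differ from the authors', so reads and intervals are approximate. Coordinates refer to GRCm38 (GENCODE M21).

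The log2 fold change used a pseudocount of 1 RPKM; folds given as such are plain RPKM ratios. With 1 library per group no test was made. Fold intervals are exact Clopper-Pearson and levels exact Poisson, both from rounded reads. Intervals of ratios of 2 genes are a normal approximation on the log scale from unrounded reads. The length trend was the median of mRNA genes in 20 bins; after subtracting it, the median of all mRNA genes with a length was added back. Scripts ran in Python 3.11.15 with pandas 2.3.3 and scipy 1.17.1 and were checked on simulated data. The alternatives tried were other pseudocounts, filters, scalings and thresholds, mRNA genes alone and length adjustment; adjustment for GC content, like-length genes, no pseudocount and no median added back were added after seeing the data. Members and lists were chosen with earlier results of these data known. Named genes were all members and the paralogs paired with them. Each related list gave its most abundant gene (by the higher of its 2 levels) and its highest and lowest by log2 fold change. Ctnna1, Smarca4, Ccnd1, Cul1, Rbx1, Lef1, Ep300, Fzd4, Rnf43, Znrf3, Ulk4 and 9130221H12Rik were named outside that rule, after their values were seen.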

Additional observations from a re-analysis of the deposited data

How the results depend on the processing

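No paired analysis was possible because each group has 1 library. Depth sets the precision: Ctnnb1 rests on about 20501 reads, Apc2 on 11.5 in the adenoma library. Members past 2-fold numbered 1, but 0 with a pseudocount of 5, 0 with the length trend subtracted, 0 with length and GC subtracted, and 2 at a 1.5-fold threshold. Among all genes past the filter, the counts higher and lower were 1309 and 654 of 16517 with a pseudocount of 5. With the length trend subtracted they were 773 and 1718 of 15528, with length and GC 758 and 1682, and with no median added back 1089 and 1206. At a 1.5-fold threshold they were 4245 and 4067 of 16517. At equal sums they were 1208 and 3158 of 16173, and with a filter at 5 RPKM 1884 and 1431 of 10815. The member median of -0.48 was -0.22 with a pseudocount of 5, -0.18 with a filter at 5 RPKM, -0.73 at equal sums, -0.082 with the length trend subtracted, -0.063 with length and GC, and 0.091 with the length trend subtracted and no median added back, where 0 members passed 2-fold. In the related lists together, distinct genes past 2-fold numbered 12 higher and 13 lower; with a pseudocount of 5 they were 6 and 5, and the lower ones were 8 with a filter at 5 RPKM, 24 at equal sums, 3 with the length trend or length and GC subtracted (2 with no median added back), and 26 at 1.5-fold. The ratio Gsk3a/Gsk3b turned from 0.30 to -0.47 with the length trend subtracted. Over the 12 alternatives for single genes, Apc, Btrc, Dvl2 and Gsk3a stayed below 0 in all, and Gsk3b in 11 (0.16 with no median added back). Axin1 was below 0 in 10, Dvl1 and Apc2 in 8 (up to 0.31 and 0.65), and Ctnnb1 and Csnk1a1 in 1, at equal sums. Some of the 12 could not change a sign. Changing or dropping the pseudocount keeps every sign, and restriction to mRNA genes leaves each value as it was. Scalings other than equal sums shifted log2 values by at most 0.062. The counts are therefore not 12 separate checks of direction. Over all genes past 2-fold, 56.1% were higher; this was 66.7% with a pseudocount of 5, 27.7% at equal sums, 31.0% with the length trend subtracted, 47.5% with no median added back and 44.3% among mRNA genes alone. The causes of these shifts were not tested.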
